A study of Mus musculus with 2 samples.

Results

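Accessible intergenic sites between 1 and 100 kb from a gene were examined in activated regulatory T cells, a class of CD4 T cells that depends on the factor Foxp3 and suppresses immune responses. Open chromatin was mapped by ATAC-seq, in which a transposase cuts and tags exposed DNA, in cells of male adult mice aged 4 months that carried the Foxp3CreERT2 and Rosa26YFP alleles. Foxp3CreERT2 places an inducible Cre recombinase under the control of Foxp3, and Rosa26YFP is a fluorescent reporter. Per the labels, the cells are primary cells that derive from hematopoietic cells of the bone marrow, and the 2 libraries are technical replicates 1 and 2 of biological replicate 1. No control group was used here, and the deposited peak lists pool the libraries, so no value has a replicate error. Regions of the list that passed an irreproducible discovery rate (IDR) of 0.05 were kept when their summit lay outside every protein-coding gene, over 1000 bp from any annotated transcription start site (TSS), and 1 to 100 kb from the nearest protein-coding TSS. Of 26090 regions, 5563 met this rule (21.3%, 95% Wilson interval 20.8 to 21.8), and they covered 3.17 Mb. Another 762 intergenic regions lay within 1000 bp of the TSS of some other annotated gene, and 985 lay beyond 100 kb. Intervals throughout cover counting error only, and regions are not replicates, so no test was made.

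Intergenic accessible sites include enhancers, which bind lineage and signal-dependent transcription factors and act on promoters at a distance, and insulators, which are bound by CTCF and anchor chromatin loops. In T cells, ETS and RUNX proteins mark sites that are open in the whole lineage, whereas AP-1, NFAT and NF-kB respond to the antigen receptor. Many genes of regulatory T cell identity and function, such as Ctla4, Il10 and Ikzf2, lie among such elements.

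The strongest sites nearest to 4 genes of T cell function are shown first, because the account of single genes returns to them. Each sequence is the summit base with 100 bp to either side on the plus strand of GRCm38 (mm10), 5′ to 3′. Capitals mark matches to ETS (CAGGAAGT or CCGGAAGT), RUNX (TGTGGTT), AP-1 (TGANTCA), IRF (GAAANNGAA), NFAT (TGGAAAA), NF-kB (GGGANTTCC), STAT (TTCNNNGAA), TCF/LEF (ATCAAAG) or KLF (CCACACCC) on either strand. The windows are chr10:118419000-118419200 for Ifng, chr1:131010595-131010795 for Il10, chr11:52299720-52299920 for Tcf7 and chr1:69752810-69753010 for Ikzf2.
Ifng: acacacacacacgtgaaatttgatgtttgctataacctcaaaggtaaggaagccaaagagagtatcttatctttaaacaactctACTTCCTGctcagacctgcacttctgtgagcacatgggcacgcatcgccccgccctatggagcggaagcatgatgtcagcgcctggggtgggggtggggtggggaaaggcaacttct
Il10: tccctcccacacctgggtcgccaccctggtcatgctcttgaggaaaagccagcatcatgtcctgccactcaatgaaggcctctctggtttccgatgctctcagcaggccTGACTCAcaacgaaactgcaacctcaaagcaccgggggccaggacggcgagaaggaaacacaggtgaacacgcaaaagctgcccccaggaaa
Tcf7: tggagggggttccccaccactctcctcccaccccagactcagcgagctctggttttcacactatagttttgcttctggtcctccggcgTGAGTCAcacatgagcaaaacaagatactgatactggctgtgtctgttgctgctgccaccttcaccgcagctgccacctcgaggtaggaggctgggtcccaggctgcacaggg
Ikzf2: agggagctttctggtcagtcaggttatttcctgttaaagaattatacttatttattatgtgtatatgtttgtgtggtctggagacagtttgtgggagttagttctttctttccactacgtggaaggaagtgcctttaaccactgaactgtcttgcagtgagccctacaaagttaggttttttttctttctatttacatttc
The site upstream of Ifng held an ETS match on the minus strand, starting 16 bp before its summit. The sites upstream of Il10 and Tcf7 each held 1 AP-1 match, starting 9 bp after and 12 bp before their summits. The Ikzf2 site held none of these letters. Of all 26090 regions, 9.70% held the A form of ETS (CAGGAAGT) and 9.39% held AP-1 in windows of this length.

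CTCF matches were more frequent in intergenic sites near genes than in promoter regions, distal introns or intergenic sites farther out, and the strongest site with a match is therefore shown for each class of distance and side. Capitals mark the CTCF match, on either strand. The windows are chr3:137991271-137991471 (9826 bp upstream of Dapp1), chr3:108389293-108389493 (3328 bp downstream of the Psrc1 TSS), chr1:135753046-135753246 (12973 bp upstream of Phlda3), chr13:75797875-75798075 (35992 bp downstream of Ell2), chr3:9947762-9947962 (64686 bp upstream of Fabp5) and chr15:96936840-96937040 (83011 bp downstream of Slc38a4).
Dapp1: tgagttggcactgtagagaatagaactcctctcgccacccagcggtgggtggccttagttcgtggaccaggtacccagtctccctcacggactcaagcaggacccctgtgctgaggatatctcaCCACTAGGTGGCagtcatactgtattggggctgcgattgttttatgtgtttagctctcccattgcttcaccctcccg
Psrc1: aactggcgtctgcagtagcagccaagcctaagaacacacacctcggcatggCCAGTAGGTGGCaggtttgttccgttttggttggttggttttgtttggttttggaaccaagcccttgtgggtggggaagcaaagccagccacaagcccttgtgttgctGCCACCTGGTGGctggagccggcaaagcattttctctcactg
Phlda3: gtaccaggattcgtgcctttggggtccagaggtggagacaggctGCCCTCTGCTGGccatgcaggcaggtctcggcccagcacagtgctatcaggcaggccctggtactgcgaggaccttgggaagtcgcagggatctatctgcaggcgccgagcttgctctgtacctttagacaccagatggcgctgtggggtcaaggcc
Ell2: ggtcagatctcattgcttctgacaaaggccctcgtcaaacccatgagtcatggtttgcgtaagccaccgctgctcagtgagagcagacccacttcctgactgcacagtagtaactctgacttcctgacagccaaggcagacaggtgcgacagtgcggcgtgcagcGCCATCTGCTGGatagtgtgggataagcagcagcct
Fabp5: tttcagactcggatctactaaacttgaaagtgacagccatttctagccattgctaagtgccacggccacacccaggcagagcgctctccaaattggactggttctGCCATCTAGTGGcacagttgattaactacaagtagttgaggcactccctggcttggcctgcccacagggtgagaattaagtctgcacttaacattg
Slc38a4: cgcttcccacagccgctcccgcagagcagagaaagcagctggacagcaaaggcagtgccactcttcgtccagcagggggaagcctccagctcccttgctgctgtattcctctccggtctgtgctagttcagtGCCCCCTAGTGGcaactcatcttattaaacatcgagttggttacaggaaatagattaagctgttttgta
Psrc1 held 2 matches in opposite directions, and the others held 1 each. A CTCF match was present in 6.05% of all regions, and a match is a description of letters, not of binding.

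Sites were densest close to genes and thinned with distance, and densities differed less between the sides than between near and far. Members numbered 1557 within 10 kb of a TSS, 3040 at 10 to 50 kb and 966 at 50 to 100 kb. Per Mb of genome that met the same position rule, this came to 10.07 (95% Poisson interval 9.57 to 10.6), 8.40 (8.11 to 8.71) and 4.54 (4.26 to 4.84) members. The decline was not even. Density was 13.9 per Mb (12.3 to 15.8) at 1 to 2 kb, 8.88 at 2 to 5 kb, 10.01 at 5 to 10 kb, 9.82 at 10 to 20 kb and 7.62 at 20 to 50 kb. The intervals of the steps from 5 to 20 kb overlap, so no decline was detectable there.

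Of the members, 3584 (64.4%, 63.2 to 65.7) lay upstream of the nearest protein-coding TSS and 1979 downstream of it. Because gene bodies lie downstream of their TSSs, the eligible bases were also unequal, 465 Mb upstream against 264 Mb downstream. Density was 7.70 per Mb upstream (7.45 to 7.96) and 7.51 downstream (7.18 to 7.84), intervals that overlap. Within 10 kb it was 10.15 upstream and 9.81 downstream, and at 50 to 100 kb it was 4.49 and 4.61. The largest gap of these classes was at 10 to 50 kb, with 8.14 upstream (7.77 to 8.52) and 8.84 downstream (8.35 to 9.35). These intervals also overlap, but overlap does not show that the densities are equal. In finer steps, density was higher upstream at 1 to 2 kb (14.1 against 12.4). It was higher downstream at 2 to 5 kb (9.99 against 8.61) and at 10 to 20 kb (10.6 against 9.41). The difference between the sides was not tested. With 1 TSS per gene in place of all annotated TSSs, 72.2% of sites were upstream.

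**Figure D1:**
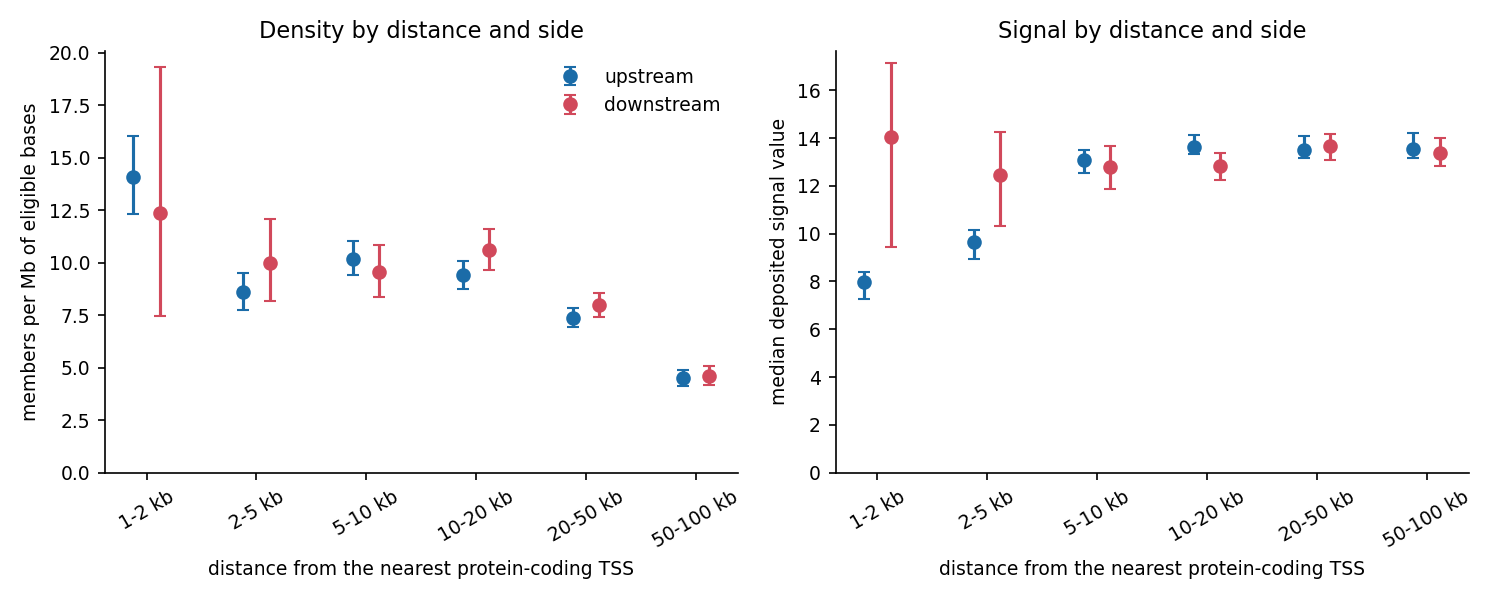
Left, members per Mb of eligible bases by distance from the nearest protein-coding TSS, upstream and downstream; right, the median deposited signal value in the same steps. Points are values and bars are 95% intervals (Poisson for density, order statistics for the median), which cover counting error only. Density falls from 13.9 per Mb at 1 to 2 kb to 4.54 at 50 to 100 kb for both sides together, and the upstream signal at 1 to 2 kb, 7.98, is the lowest of the 12 points.

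Sites within 10 kb of a TSS were weaker and narrower than those farther out. The deposited signal value is the authors' value per peak, and the sources used here do not say what it is relative to. It had a median of 12.98 over members (12.8 to 13.2), against 13.6 over all regions, 15.4 in promoter regions, 12.1 in distal introns and 13.5 in intergenic regions beyond 100 kb. Within 10 kb the median was 11.4 (11.1 to 11.8), against 13.5 at 10 to 50 kb and 13.5 at 50 to 100 kb. The low values were upstream. At 1 to 2 kb upstream the median was 7.98 (7.27 to 8.38, 228 members), and at 2 to 5 kb upstream it was 9.65 (8.93 to 10.1). Downstream, the median at 1 to 2 kb was 14.1 (9.46 to 17.2), from 19 members, and 12.4 at 2 to 5 kb. From 5 kb on, the medians of the 2 sides lay between 12.8 and 13.7.

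Signal moved with the distance to the next accessible region. The 1132 members under 2 kb from another region had a median signal of 8.63 (8.39 to 8.93), against 13.98 (13.8 to 14.2) in the other 4431. At 1 to 2 kb from a TSS, 153 of 247 members had such a neighbour, and in 130 of the 153 the nearest region was a promoter region. Their median signal was 6.71, against 12.3 in the 94 without a neighbour under 2 kb. Leaving out members under 2 kb from another region, an alternative chosen after seeing the data, raised the median within 10 kb to 12.95 (12.5 to 13.3), and at 10 to 50 and 50 to 100 kb it was then 14.3 and 14.3. Members of the lowest quartile of signal lay at a median of 2139 bp from the next region and those of the highest quartile at 12876 bp. The part of neighbouring peaks in these signal values was not tested.

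Width was larger farther out, from a median of 485 bp (473 to 496) within 10 kb to 544.5 bp at 10 to 50 kb and 583 bp (566 to 603) at 50 to 100 kb. Over all members it was 533 bp, against 637 bp over all regions and 832 bp at promoters. More than 1 summit was listed in 38.9% of members (37.6 to 40.2), in 52.9% of all regions and in 73.4% of promoter regions. The share with several summits was 35.3% within 10 kb and 45.1% at 50 to 100 kb. A stricter global IDR of 0.01 or below was met by 3781 members (68.0%, 66.7 to 69.2), against 76.2% of all regions. It was met by 97.6% of the highest signal quartile of members and by 43.7% of the lowest. In the ranked list, the 2 inputs' values differed by 2-fold or less at 97.9% of members, but the sources used here do not say what these inputs were. At the rule's borders, the 20 members nearest to 1000 bp had a median signal of 7.33, against 11.1 in the 20 intergenic regions just closer to a TSS than that limit. At 100 kb, the 20 members nearest to the limit had a median of 13.8 and the 20 regions just beyond it 15.8.

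Intergenic sites gathered around genes whose own promoter was accessible. The nearest protein-coding gene had a region within 1000 bp of one of its TSSs for 4093 members (73.6%, 72.4 to 74.7), while this held for 38.8% of the eligible bases. That region was scored by its edges, so it could be the member itself where the summit lay just beyond 1000 bp. The share was 80.6% at 1 to 2 kb, 65.0% at 2 to 5 kb and 74.3% at 5 to 10 kb. How much such members added near the TSS was not tested. The nearest gene had a promoter region for 87.0% of all regions, which include the promoter regions themselves, and for 82.5% of distal intronic regions. The share was 72.8% of intergenic regions beyond 100 kb, so the trait was not particular to members. Density was 14.5 members per Mb near genes with a promoter region and 3.30 near the others, a ratio of 4.39 (4.13 to 4.66). The ratio was 3.98 within 10 kb, 4.23 at 10 to 50 kb and 5.45 at 50 to 100 kb. It was largest at 50 to 100 kb upstream, where 9.64 members per Mb lay near genes with a promoter region and 1.54 near genes without, a ratio of 6.25. In these cells the difference between the 2 kinds of gene thus reached the outer limit of the distances examined. Without chromosomes X and Y, an alternative chosen after seeing the data, the ratio was 3.97.

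**Figure D2:**
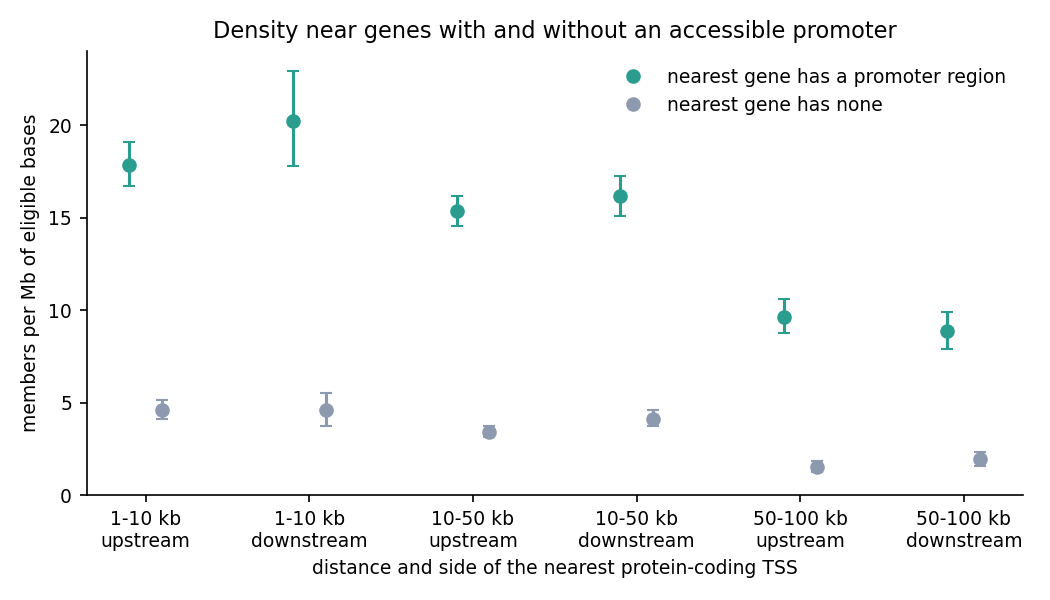
Members per Mb of eligible bases in each class of distance and side, split by whether the nearest protein-coding gene has an accessible promoter region. Points are values and bars are 95% Poisson intervals. In each of the 6 classes the density near genes with a promoter region, from 8.89 to 20.2 per Mb, is above that near genes without, from 1.54 to 4.61.

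Most genes had no such site, and a few had many. Of 21938 protein-coding genes, 3272 (14.9%) were the nearest gene of 1 or more members. Of these, 2104 had 1 member, while 138 had 5 or more and together held 873 members (15.7%). Among genes with a promoter region 21.2% had a member, and among genes without one 8.89% did, which left 992 genes with members and no promoter region. Btg1, an antiproliferative gene of resting lymphocytes, S1pr1, the sphingosine 1-phosphate receptor that lets T cells leave lymph nodes, and Zfp217, a zinc finger gene, had 13 members each. Tmsb4x, which encodes the actin-binding thymosin beta 4, and Klhl25 had 12, and Zfp281 had 11. Ado, Rgs1, a regulator of chemokine receptor signalling, and Irf2bpl had 10 each, and Gm9887, Ifng, Rasgrp1, Fasl and Smad7 had 9 each. Density in the eligible bases around the first 10 of these genes ran from 69.2 per Mb at Btg1 to 107 at Ado, against 7.63 over all members. These genes were chosen for their number of members, so a high density follows from the choice.

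Around S1pr1, 7 members lay downstream and 6 upstream. Their signals ran from 4.32, at 86011 bp upstream, to 19.4, at 32241 bp downstream. Around Btg1 they ran from 5.25 to 21.4. Its strongest downstream site lay at 46707 bp (21.3), and the 6 most distant of its 8 upstream sites lay inside annotated noncoding genes. Upstream of Btg1, the 2 sites nearest to the gene were the strongest (13.4 at 7478 bp and 21.4 at 17226 bp), and the 6 farther ones ran from 5.49 to 10.5.

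Genes of T cell identity and signalling carried intergenic sites more often than the 14.9% of all genes. So did every other list, housekeeping genes included, except the erythroid and megakaryocyte list and the liver list. Among all genes with a promoter region the share was 21.2%, and 19 of 20 regulatory T cell core genes had such a region. Members were present at 13 of 20 regulatory T cell core genes, 12 of 20 effector regulatory T cell genes, 11 of 15 genes of naive or resting T cells and 15 of 25 genes of T cell receptor and calcium signalling. They were present at 14 of 18 AP-1 and related factors, 9 of 14 costimulatory and co-inhibitory receptors, 11 of 20 migration receptors, 8 of 15 helper lineage genes and 6 of 16 genes of interleukin-2 and STAT signalling. Cell cycle genes had members at 5 of 20 and housekeeping genes at 7 of 16, although all genes of both lists had a promoter region. For other lineages the counts were 2 of 12 B cell, 3 of 14 myeloid, 0 of 10 erythroid and megakaryocyte, 1 of 10 liver and 2 of 10 neuronal and glial genes. NK and cytotoxic genes had members at 5 of 12. Some genes stand in more than 1 list, and up to 2 genes of a list had no eligible bases and so could have no member.

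The space around a gene differs between lists, so the same counts were set against eligible bases. Members per Mb were 48.9 for T cell receptor and calcium signalling, 44.9 for naive or resting T cell genes, 44.5 for costimulatory and co-inhibitory receptors and 43.5 for migration receptors. They were 36.8 for AP-1 factors, 35.05 for the regulatory T cell core, 30.3 for effector genes, 26.2 for interleukin-2 and STAT signalling and 25.2 for helper lineage genes. Housekeeping genes had 47.1 per Mb and NK and cytotoxic genes 36.98, while cell cycle genes had 15.7. B cell (9.14), myeloid (9.61), neuronal (5.17) and liver genes (3.92) lay on either side of the 7.63 of all members. Density thus did not separate T cell genes from housekeeping genes, of which Ywhaz alone gave 7 of 19 members and Eef1a1 4. Single genes weighed as much in some T cell lists. S1pr1 gave 13 of 39 members of migration receptors and 13 of 49 of naive or resting T cell genes, and Ifng gave 9 of 21 of helper lineage genes.

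At the regulatory T cell core, Ctla4, an inhibitory receptor that outcompetes Cd28 for shared ligands, had the most members. Its 6 upstream sites had signals of 14.8 at 63846 bp, 16.01 at 33452 bp, 7.66 at 26218 bp, 12.3 at 18407 bp, 9.51 at 11551 bp and 7.11 at 4027 bp. Its 2 downstream sites had 6.44 at 11493 bp and 14.2 at 32031 bp. The strongest sites of Ctla4 were therefore among the most distant and the site nearest to the gene was among the weakest. Ikzf2, which encodes the factor Helios, had 3 sites with the same order: signals of 4.79 at 1966 bp, 7.90 at 4887 bp and 17.8 at 65665 bp upstream, the last being the sequence shown above. Satb1, a chromatin organiser, and Cd5, a negative regulator of T cell receptor signalling, had 4 members each, and Tigit and Izumo1r, which encodes folate receptor 4, had 3. Nt5e, which encodes the adenosine-producing ectonucleotidase CD73, had 1 member, and it was the ninth strongest of all, with a signal of 32.9 at 85439 bp upstream (chr9:88241557-88242052). Lrrc32, which encodes GARP, the surface receptor for latent TGF-beta, had 2 downstream members of up to 23.1. Il2ra, the alpha chain of the interleukin-2 receptor, had 1 weak member (5.89, 5572 bp upstream). It had only 7.27 kb of eligible bases, and it was the nearest gene of 7 regions of any kind. Foxp3 had no eligible bases under the position rule, so no member could be assigned to it.

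In the effector list, the most members were at Cd44, an adhesion receptor, with 6 upstream members of up to 21.3, and by the costimulatory receptor Icos with 5. Irf4, Maf and Tnfrsf1b had 4 each. Il10, the gene of an anti-inflammatory cytokine, had no promoter region but 3 upstream members: 18.4 at 25944 bp, 7.06 at 20067 bp and 19.8 at 9150 bp. The 2 strong Il10 sites thus lay to either side of a weak one. Prdm1, which encodes the effector regulator Blimp-1, had its strongest site at 1046 bp upstream (24.5), with 2 more downstream at 27523 bp (14.99) and 76506 bp (12.2). Gata3 had no member in 96.6 kb of eligible bases, but it was the nearest gene of 19 regions of any kind. Among AP-1 and related factors, Bach2, a repressor of effector differentiation that binds AP-1-like sites, had 8 members of up to 15.1, and Fos, Jun, Egr1 and Nr4a3 had 4 each, of up to 20.2, 23.2, 17.6 and 20.5.

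Naive or resting T cell genes also carried sites in these activated cells. Tcf7, which encodes TCF-1, had no promoter region and 4 upstream members, with signals of 16.9 at 11280 bp, 17.2 at 16806 bp, 8.78 at 31245 bp and 8.59 at 35692 bp. The pair nearer to the gene was about as strong as each other and stronger than the outer pair. Ccr7, the receptor that guides T cells into lymph nodes, had 4 members with signals from 9.89 to 15.3, on both sides. Ets1 and Il7r had 4 each, all upstream, of up to 16.4 and 11.6. Lef1 had 3, of up to 26.8. In T cell receptor signalling, Rasgrp1, which activates Ras, had 9 members, all upstream, and Prkcq, which encodes protein kinase C theta, had 6 although it had no promoter region. Migration receptors beside S1pr1 were led by Cxcr4 and Cd69 with 5 each. In interleukin-2 and STAT signalling no gene had more than 2 members, and Il2 itself had 1 (10.2 at 26549 bp upstream).

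Ifng, the signature cytokine of Th1 cells, was the helper lineage gene with the most members, 9. Upstream, signals were 19.5 at 34071 bp, 12.5 at 28060 bp and 22.1 at 21946 bp. Downstream, they were 6.15 at 17878 bp, 11.3 at 20466 bp, 12.7 at 28211 bp, 9.76 at 29807 bp, 17.1 at 36442 bp and 19.1 at 45890 bp. No member lay within 10 kb of the Ifng TSS, and signals of 17 or more were found on both sides. Cxcr5, the follicular homing receptor, and Ahr had 3 upstream members each, Il21 had 2, and Bcl6 (10.6 at 8592 bp upstream), Tbx21, Il5 and Il9 had 1. Il4, Il13, Il17a, Il17f and Il22 had none. Among cytotoxic genes Fasl, which encodes the death ligand FasL, had 9 members, and Gzmb and Klrb1c had 3.

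**Figure D3:**
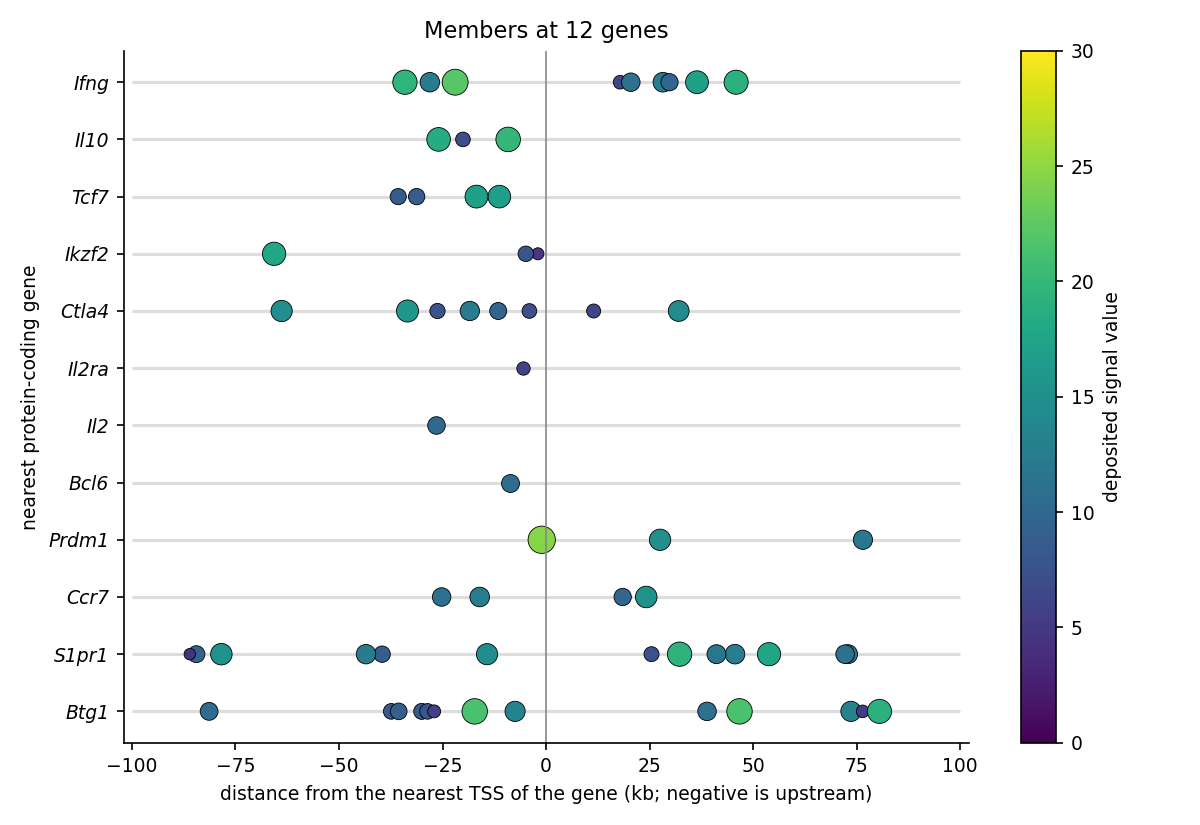
Members nearest to 12 genes, by signed distance from the nearest TSS of that gene in kb, with the area and colour of each point showing the deposited signal value. At Ctla4 and Ikzf2 the strongest sites lie 33452 and 65665 bp upstream, and no member lies within 10 kb of Ifng, Ccr7, Tcf7 or Il2.

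The label of the cells was compared with the promoters of defining markers. A promoter region was present at 7 of 8 regulatory T cell markers (Foxp3, Il2ra, Ctla4, Ikzf2, Cd3e, Cd3d and Cd28, but not Cd4), at 1 of 4 B cell markers, at 0 of 4 NK cell, 0 of 4 myeloid and 0 of 3 liver markers, at Cd8b1 but not Cd8a, and at 2 of 3 erythroid markers (Gata1 and Klf1). For comparison, 49.1% of all protein-coding genes had a promoter region, and the number of markers per cell type is small. The share of other cells in the sample was not tested.

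CTCF matches were the clearest difference between intergenic sites near genes and the other distal sites. A match lay within 100 bp of the summit in 675 members (12.1%, 11.3 to 13.02), against 1.15% (0.968 to 1.37) of windows centred 1000 bp to either side, a ratio of 10.5. The share was 2.09% in promoter regions, 7.18% in distal introns and 4.06% in intergenic regions beyond 100 kb, so members exceeded distal introns by 4.96 percentage points (Newcombe interval 3.92 to 6.01) and the farther intergenic regions by 8.07 (6.43 to 9.46). It was lower with distance among members too, from 13.5% within 10 kb and 12.5% at 10 to 50 kb to 8.90% at 50 to 100 kb, a difference of 4.58 points (2.05 to 7.01) between the first and the last. It was 11.2% near genes with a promoter region and 14.8% near genes without one. With a longer CTCF consensus and 1 mismatch allowed, 18.6% of members matched.

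Members with a CTCF match had a different shape from the rest. They were narrower, with a median width of 425 bp (413 to 442) against 552 bp (544 to 562), and more than 1 summit was listed in 28.7% of them against 40.3%. Their signal was similar, 13.2 against 12.9, but a global IDR of 0.01 or below was met by 56.9% (53.1 to 60.6) against 69.5%. They lay farther from the next accessible region, at a median of 11186 bp against 7727 bp, and closer to the TSS, at 16230 bp against 20187 bp. Of the members with a single match, the CTCF consensus read toward the nearest TSS in 293 of 659 (44.5%, 40.7 to 48.3). The share was 48.2% (43.4 to 53.0) upstream and 38.4% (32.6 to 44.6) downstream, so the downstream interval lay below an even split.

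ETS, RUNX, AP-1 and NF-kB matches were also more frequent at the summits than in flanks, while STAT was close to its flanks and NFAT below them. The A form of ETS was present in 12.1% (11.2 to 12.9) against 1.69% of flanks, a ratio of 7.14, and the C form (CCGGAAGT) in 1.55% against 0.216%. RUNX was present in 13.3% against 5.18% of flanks (ratio 2.57), AP-1 in 13.9% against 5.86% (2.37) and NF-kB in 2.62% against 0.737% (3.56). The cyclic AMP response element CRE (TGACGTCA) had a ratio of 7.33 but was present in 0.989% of members only. IRF (9.60% against 6.64%), TCF/LEF (4.71% against 3.42%), KLF (3.24% against 1.99%) and STAT (7.10% against 6.24%) had ratios from 1.14 to 1.63. The E-boxes CAGCTG (13.7% against 9.18%) and CAGGTG (17.7% against 14.5%) were frequent in flanks as well, and the second shares letters with some CTCF matches. At promoters the A form of ETS was present in 4.90%, RUNX in 3.54% and AP-1 in 3.77%, while SP (GGGGCGGGG) was present in 16.4% of promoter regions and 2.57% of members.

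In contrast to CTCF, the A form of ETS, AP-1, RUNX, IRF and STAT were more frequent at 50 to 100 kb than within 10 kb. From within 10 kb to 50 to 100 kb, the A form of ETS went from 10.5% to 14.5% (difference −4.02 points, interval −6.78 to −1.39), AP-1 from 12.3% to 15.7% (−3.47, −6.34 to −0.705) and RUNX from 12.2% to 15.1% (−2.91, −5.76 to −0.181). IRF went from 8.03% to 10.6% (−2.53, −4.97 to −0.228) and STAT from 5.84% to 8.28% (−2.44, −4.62 to −0.407). For the C form of ETS, NF-kB, NFAT, TCF/LEF and KLF the interval of the difference included 0. TCF/LEF was at 3.47%, 5.49% and 4.24% in the 3 classes. Beyond 100 kb the shares of the A form of ETS, AP-1 and RUNX were 15.9%, 18.5% and 17.2%. These 3 were also higher with signal: between the lowest and the highest quartile of members, the A form of ETS went from 9.71% to 14.7%, AP-1 from 12.4% to 16.03% and RUNX from 11.8% to 15.03%. RUNX was the motif of these 3 that differed by side, at 14.3% upstream and 11.6% downstream (2.71 points, 0.862 to 4.50). Shares in distal introns were close to those of members for AP-1 (13.6%) and RUNX (14.4%) and higher for the A form of ETS (13.96%).

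**Figure D4:**
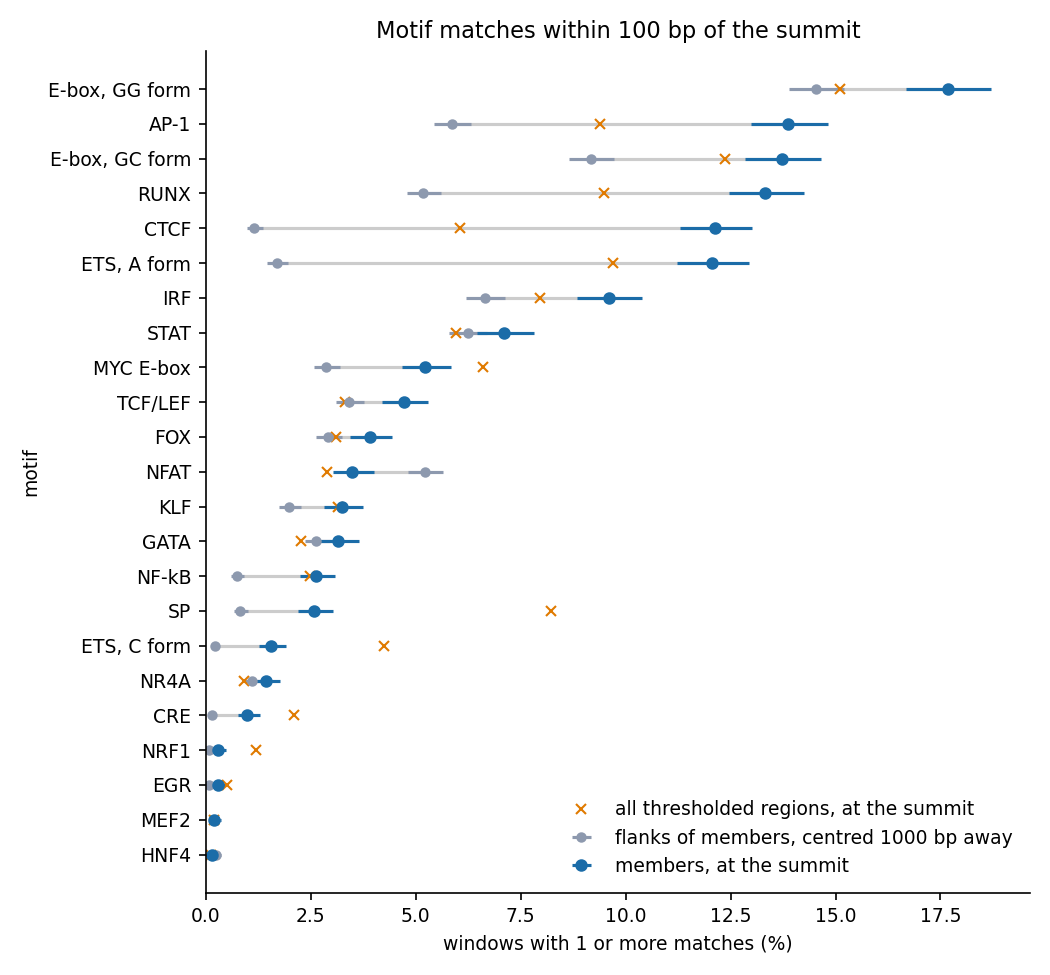
Share of windows with 1 or more matches of each of 23 motifs: members at the summit, flanks of the same members centred 1000 bp away, and all thresholded regions at the summit. Bars are 95% Wilson intervals. CTCF stands at 12.1% in members, 1.15% in their flanks and 6.05% in all regions, whereas NFAT is lower at the summit (3.49%) than in the flanks (5.21%).

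CTCF shared a summit with ETS, RUNX and AP-1 less often than its share of all members, but not with NFAT. A CTCF match was present in 2.83% of members with the A form of ETS, in 4.86% of those with RUNX and in 5.18% of those with AP-1, against 12.1% of all members. It was present in 9.16% of members with TCF/LEF, in 8.33% of those with KLF and in 15.5% of those with NFAT. AP-1 was present in 14.3% of members with the A form of ETS and in 14.4% of those with RUNX, against 13.9% of all. RUNX was present in 10.9% of members with the A form of ETS, against 13.3% of all. Of all members, 47.3% held none of the 10 lymphocyte motifs searched, 36.8% held 1 kind and 13.3% held 2. These counts were not made in flanks or in all regions, so they do not set members apart. Median width went from 501 bp with none to 551 bp with 1 kind and 588 bp with 2, and median signal from 12.7 to 13.2 and 13.5. Members with a CTCF match, which were narrower, were not separated here, and their part in the width was not tested.

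Within members, matches of CTCF, CRE, ETS, NF-kB, RUNX and AP-1 gathered toward the summit, while other enriched motifs did so less. Of all matches up to 200 bp from the summit, an even spread would put 12.7% within 25 bp of it. The share was 59.5% for CTCF, 45.5% for CRE, 39.1% for the A form of ETS, 32.5% for NF-kB, 28.3% for RUNX and 24.98% for AP-1. STAT (10.8%) and the CAGCTG E-box (14.2%) were near an even spread. NFAT went the other way: 6.60% of its matches lay within 25 bp, and its share of members was 3.49% at the summit against 5.21% in flanks, a ratio of 0.669. It was 2.59% in the highest signal quartile and 4.03% in the lowest. GC content was higher at the summits, with a median of 49.8% against 45.5% in flanks, and the NFAT motif searched is rich in A. The part of base composition in this difference was not tested.

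**Figure D5:**
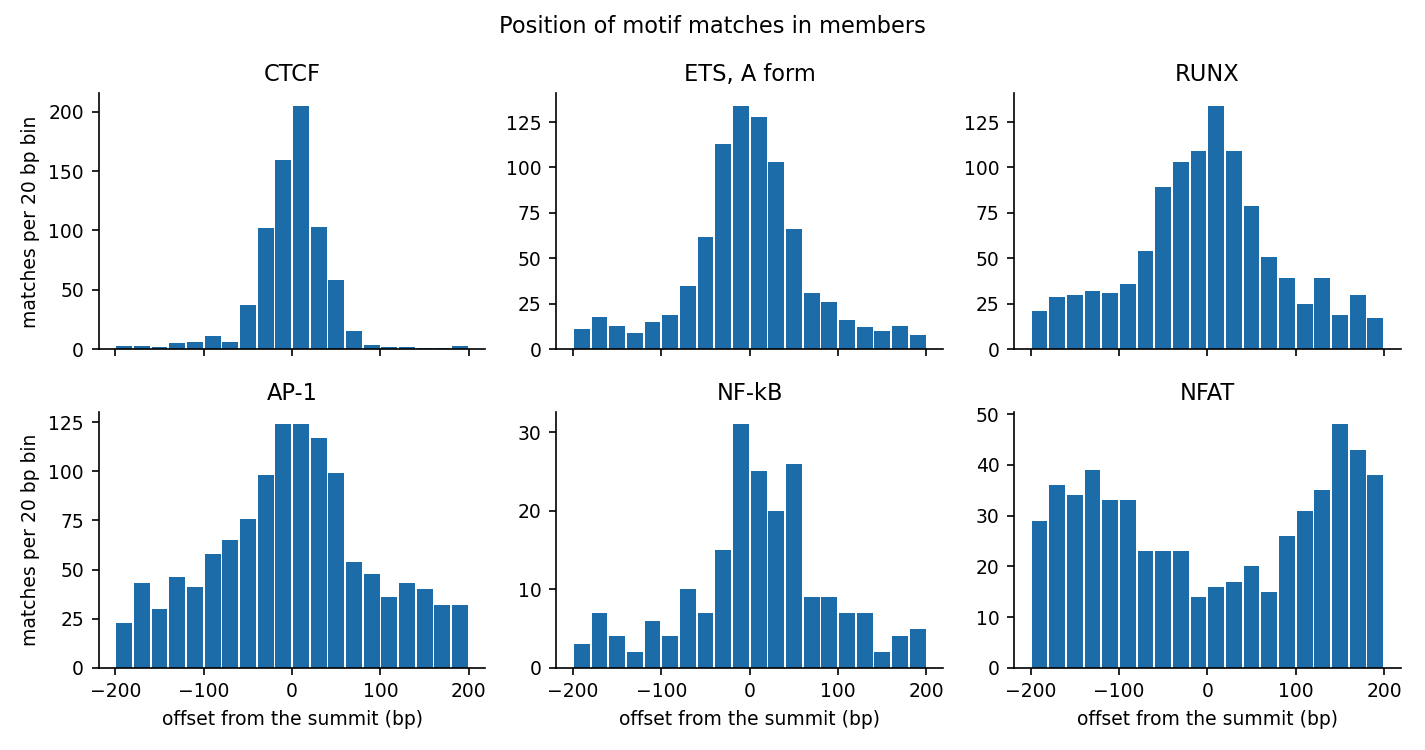
Number of motif matches in members per 20 bp bin of offset from the summit, for 6 motifs. CTCF, ETS, RUNX, AP-1 and NF-kB matches peak at the summit, with 59.5% of CTCF matches within 25 bp, while NFAT matches dip there, with 6.60%.

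The sequence under the summits was poor in repeats and richer in GC than the intergenic space around genes. The summit base was soft-masked as a repeat in 483 members (8.68%, 7.97 to 9.45), against 41.1% of eligible bases. This share was 6.98% over all regions, 9.55% in distal introns and 10.4% in intergenic regions beyond 100 kb, so it was not particular to members. How the mapping of reads to repeats entered these shares was not tested. Eligible bases were 42.4% G or C. The observed over expected CpG ratio had a median of 0.285 at summits and 0.194 in flanks, against 0.806 at the summits of promoter regions. Spans of noncoding genes held 668 members (12.01%, 11.2 to 12.9) and 10.8% of eligible bases. At 50 to 100 kb they held 15.4% of members (13.3 to 17.8) and 12.6% of bases. Most of these spans were of lincRNAs (365 members) and antisense transcripts (165). The antisense gene Gm27008 held 9 members, and Junos, which is divergent to Jun, held 4.

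Members were found on every autosome, from 5.84 per Mb on chromosome 14 to 10.8 on chromosome 10. Chromosome X had 130 members, or 2.23 per Mb, and chromosome Y had 2, or 0.0821 per Mb. Near genes with a promoter region, density on X was 5.85 per Mb, against 11.6 to 18.5 on the autosomes, and near genes without one it was 1.16 against 2.25 to 5.15. Median signal on X was 14.3, above the autosomal medians of 12.1 to 13.6. Male cells have 1 copy of X and Y, and how copy number or mapping entered the density was not tested.

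Of the 10 strongest members, 3 aligned to the mitochondrial genome, whose DNA is copied many times per cell. These were the sites near Abcb11 (signal 64.99, 129 bp aligned at 100% identity), near Gm5426 (51.4, 373 bp at 97.6%) and near Ric8b (35.5, 156 bp at 90.4%). One further member aligned, and without these 4 the median signal of members stayed at 12.98. The second strongest, near Pak3 on chromosome X (60.8, 35531 bp upstream), had no such alignment. The other 6 were near Igf2bp3 (36.2), Lrfn3 (33.8), Hic2 (33.1), Pnldc1 (33.0), Nt5e (32.9) and Alkbh8 (32.7). Within the classes, the strongest members 1 to 10 kb upstream were near Arpc2, Pik3cd and Aacs, of which Pik3cd encodes the phosphoinositide 3-kinase delta of lymphocytes. Other class leaders were near Arhgef15, Hepacam2, Tlr5, Edem1, Lipg and Spin2c.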

How the data were processed

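ATAC-seq was measured in 2 technical replicates of activated regulatory T cells, and 3 peak lists of the whole series (pseudoreplicated, IDR ranked and IDR thresholded) were used. Per the labels the build is mm10, and per the README of the libraries the lists pool both. The aligner, the peak caller and any shift of reads for the transposase are not given in the sources used, so depth is unknown. The deposited signal value, score, −log10 p-value, −log10 q-value and −log10 IDR are the authors' values per peak.

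Rows that overlapped by 1 bp were merged, with the summit of the row of highest signal. TSSs came from GENCODE M21 and bases from GRCm38.p6. Motifs were matched by consensus on both strands within 100 bp of the summit and in windows centred 1000 bp away. Mitochondrial copies were sought with blastn 2.17.0 (50 bp, 90% identity), the rest with Python 3.11.15. Classing and matching were checked on simulated data. Members and gene lists were chosen with earlier results of these data known, and density per list was added after seeing the data. Genes were named by rule: 12 in every case, the 10 with the most members, up to 4 per list, and those nearest to the strongest members overall and per class; genes outside it, or with no member, were named after their values were seen. A few genes that the rule names are not reported here. Alternatives covered list, threshold, summit, TSS set, TSS distance and motif definition.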

Additional observations from a re-analysis of the deposited data

Results flagged for a closer look

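The pseudoreplicated list, which the results above do not use, held 6915 regions that met the same position rule and overlapped no region of the thresholded list, and they are given because they are a signal outside the main measurement. They were weak, with a median signal of 6.07 (quartiles 4.68 and 7.76), and narrow, with a median width of 292 bp. A CTCF match was present in 16.2% of them (15.3 to 17.1) and an AP-1 match in 11.1% (10.4 to 11.9), against 12.1% and 13.9% of the members. Their distances were 28.5% within 10 kb, 53.4% at 10 to 50 kb and 18.05% at 50 to 100 kb, and 62.9% lay upstream. The nearest gene had a promoter region of that list for 76.1% of them.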

How the results depend on the processing

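Of 65 values under other settings, 43 stayed within the interval of the reported value (a count, within 1.5 times) and 22 did not. With the pseudoreplicated list there were 12463 members, with a median signal of 8.10, 78.1% near a gene with a promoter region, CTCF in 14.4% and AP-1 in 12.3%. With a global IDR of 0.01 or below, the median signal was 14.96, the share near such genes 70.0% and CTCF 10.2%. With the leftmost summit, the median signal was 11.02, CTCF 10.7% and AP-1 12.6%. With 1 TSS per gene, 72.2% were upstream and 25.6% within 10 kb. With members over 2500 bp from any TSS, 62.7% were upstream, 23.6% within 10 kb and the median signal 13.2. Motif windows of 50 bp gave CTCF in 10.8% and AP-1 in 8.97%, and 200 bp gave AP-1 in 19.1%. The longer CTCF consensus gave 18.6%. Without chromosomes X and Y the ratio of density by promoter was 3.97, and without members under 2 kb from another region the median signal within 10 kb was 12.95, both settings added after seeing the data. Narrower or wider windows change motif shares by construction, and a summit other than the strongest lowers the signal by construction. The CTCF share does not follow from the number of peaks in that way. Promoter regions were called anew from each list, so the share near genes with a promoter region can move with the number of peaks by construction. From the pseudoreplicated list through the main list to the stricter IDR, CTCF went from 14.4% to 12.1% and 10.2%. The share near genes with a promoter region went from 78.1% to 73.6% and 70.0%, so both depended on the stringency of the list. Merging at 50% overlap gave the same regions. Leaving out each library could not be run because the lists pool both.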
